A study of Mus musculus with 60 samples.

Results

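The perineuronal net genes described here are 7: the chondroitin sulfate proteoglycans of the lectican family Acan (aggrecan), Bcan (brevican), Ncan (neurocan) and Vcan (versican), the link proteins Hapln1 and Hapln4, and Tnr (tenascin-R). They were chosen by name, as the core components of the net, and taken from a table of 18088 genes by matching Ensembl identifiers to symbols. All 7 were in the table and all 7 passed the filter on low values, which left 17807 genes for testing. The samples are 60 prefrontal cortex RNA-seq libraries of C57BL/6J mice at postnatal day 25. Mice were wild type (WT) or heterozygous for the Chd8 allele N2373K (Chd8+/N2373K, called Het below), a mutation in the gene of the chromatin remodeller CHD8. Nursing pups received vehicle, fluoxetine (a serotonin reuptake inhibitor) or lithium through the milk of the dam from day 3 to day 24, for 3 weeks. Genotype, treatment and sex gave 12 groups of 5. The labels number the libraries of a group as replicates and do not name litters or dams, so pups that shared a dam cannot be told apart and the p-values treat the libraries as independent.

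Perineuronal nets are lattices of extracellular matrix that surround the soma and proximal dendrites of some neurons, in the cortex mostly the fast-spiking interneurons that contain parvalbumin. Long hyaluronan chains made at the cell surface form the backbone, lecticans bind to it through their amino-terminal domain, link proteins clamp that bond, and tenascin-R joins the other ends of the lecticans. Nets assemble during postnatal development, and their maturation is known to accompany the end of critical periods of cortical plasticity. Aggrecan is the lectican most restricted to nets, whereas brevican, neurocan and versican also belong to the diffuse matrix and to perinodal matrix, and much of their mRNA comes from astrocytes and oligodendrocyte precursors.

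Lectican and link protein genes lay side by side in the genome (GENCODE M21, GRCm38). Ncan (ENSMUSG00000002341, chr8:70093085-70120873, minus strand) lay 2222 bases from Hapln4 (ENSMUSG00000007594, chr8:70083457-70090862, plus strand). Vcan (ENSMUSG00000021614, chr13:89655312-89742509, minus strand) lay 43659 bases from Hapln1 (ENSMUSG00000021613, chr13:89539796-89611652, plus strand). Bcan (ENSMUSG00000004892, chr3:87987531-88000230, minus strand) lay 21519 bases from Hapln2, a link protein of myelinated axons, and Acan (ENSMUSG00000030607, chr7:79053483-79115099, plus strand) ended 2 bases from Hapln3, with no other measured gene between the partners of any of the 4 pairs. Tnr (ENSMUSG00000015829, chr1:159523769-159931729, plus strand) has no such partner.

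Bcan and Ncan are the members that were lower with fluoxetine in Het mice, so the 250 bases before their RefSeq starts are shown (GRCm38.p6, both on the minus strand, 5′ to 3′). Bcan covers chr3:88000357-88000606 and Ncan covers chr8:70120845-70121094. Capitals mark matches on either strand to TGTTCT (a hexamer of the glucocorticoid response element), TGACG (of the cyclic AMP response element), GGGCGG (the GC box) and TATAAA (the TATA box).
Bcan: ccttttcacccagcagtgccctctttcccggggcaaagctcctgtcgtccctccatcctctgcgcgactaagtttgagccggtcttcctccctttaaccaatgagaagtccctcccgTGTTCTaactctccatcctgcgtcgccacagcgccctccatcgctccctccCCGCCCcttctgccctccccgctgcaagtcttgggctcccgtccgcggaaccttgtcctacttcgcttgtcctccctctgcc
Ncan: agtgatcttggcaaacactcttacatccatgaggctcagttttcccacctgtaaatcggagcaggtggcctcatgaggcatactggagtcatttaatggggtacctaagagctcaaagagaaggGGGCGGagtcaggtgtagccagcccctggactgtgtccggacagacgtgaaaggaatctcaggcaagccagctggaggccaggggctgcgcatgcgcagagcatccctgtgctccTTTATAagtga
Of the 32851 promoter windows in the RefSeq table, cut to the same 250 bases, 16.1% hold TGTTCT, 17.8% hold TGACG, 32.7% hold GGGCGG and 12.4% hold TATAAA on 1 strand or the other. Bcan has TGTTCT at position -133 from the start and GGGCGG, read on the other strand, at -82. Ncan has GGGCGG at -126 and TATAAA, read on the other strand, at -11, and no TGTTCT in this window. Neither window holds TGACG. The table held 6 of the 7 members, without Hapln4. These matches describe the letters only.

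Per kilobase of the longest coding transcript, Bcan stood highest of the 7, with 1765 ± 199 normalized counts per kb (mean ± SD over the 60 libraries), and Ncan followed with 1294 ± 194. A normalized count is the read count of a gene divided by 1 factor per library. Tnr stood at 709 ± 53.5 per kb, the 2 link proteins Hapln4 at 420 ± 80.1 and Hapln1 at 241 ± 37.1, Vcan at 88.6 ± 11.6 and Acan at 16.5 ± 8.57. Neighbours in this order were separated in nearly every library: Bcan exceeded Ncan in 60 of 60, Ncan exceeded Tnr in 59 and Tnr exceeded Hapln4 in 59, and the whole order held in 58. Counting all exons in place of the longest transcript gave the same order. Acan, the lectican that marks nets most closely, was thus the least abundant member, below Hapln2 (74.4 per kb) and above Hapln3 (13.0 per kb). Pvalb, the gene of parvalbumin, stood at 558 ± 148 per kb.

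The members differed in how far their group means spread. Acan had the widest range, with a highest group mean (Het fluoxetine females) that was 2.38 times its lowest (WT fluoxetine males), followed by Hapln4 with a ratio of 1.66, Ncan with 1.53, Hapln1 with 1.38, Vcan with 1.27, Bcan with 1.22 and Tnr with 1.15. Within a group of 5, the median coefficient of variation over the 12 groups was 29.1% for Acan, 9.8% for Bcan, 10.2% for Ncan, 10.2% for Vcan, 11.8% for Hapln1, 13.2% for Hapln4 and 5.1% for Tnr. Tnr was therefore the steadiest member and Acan the most variable, both between and within groups.

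**Figure D1:**
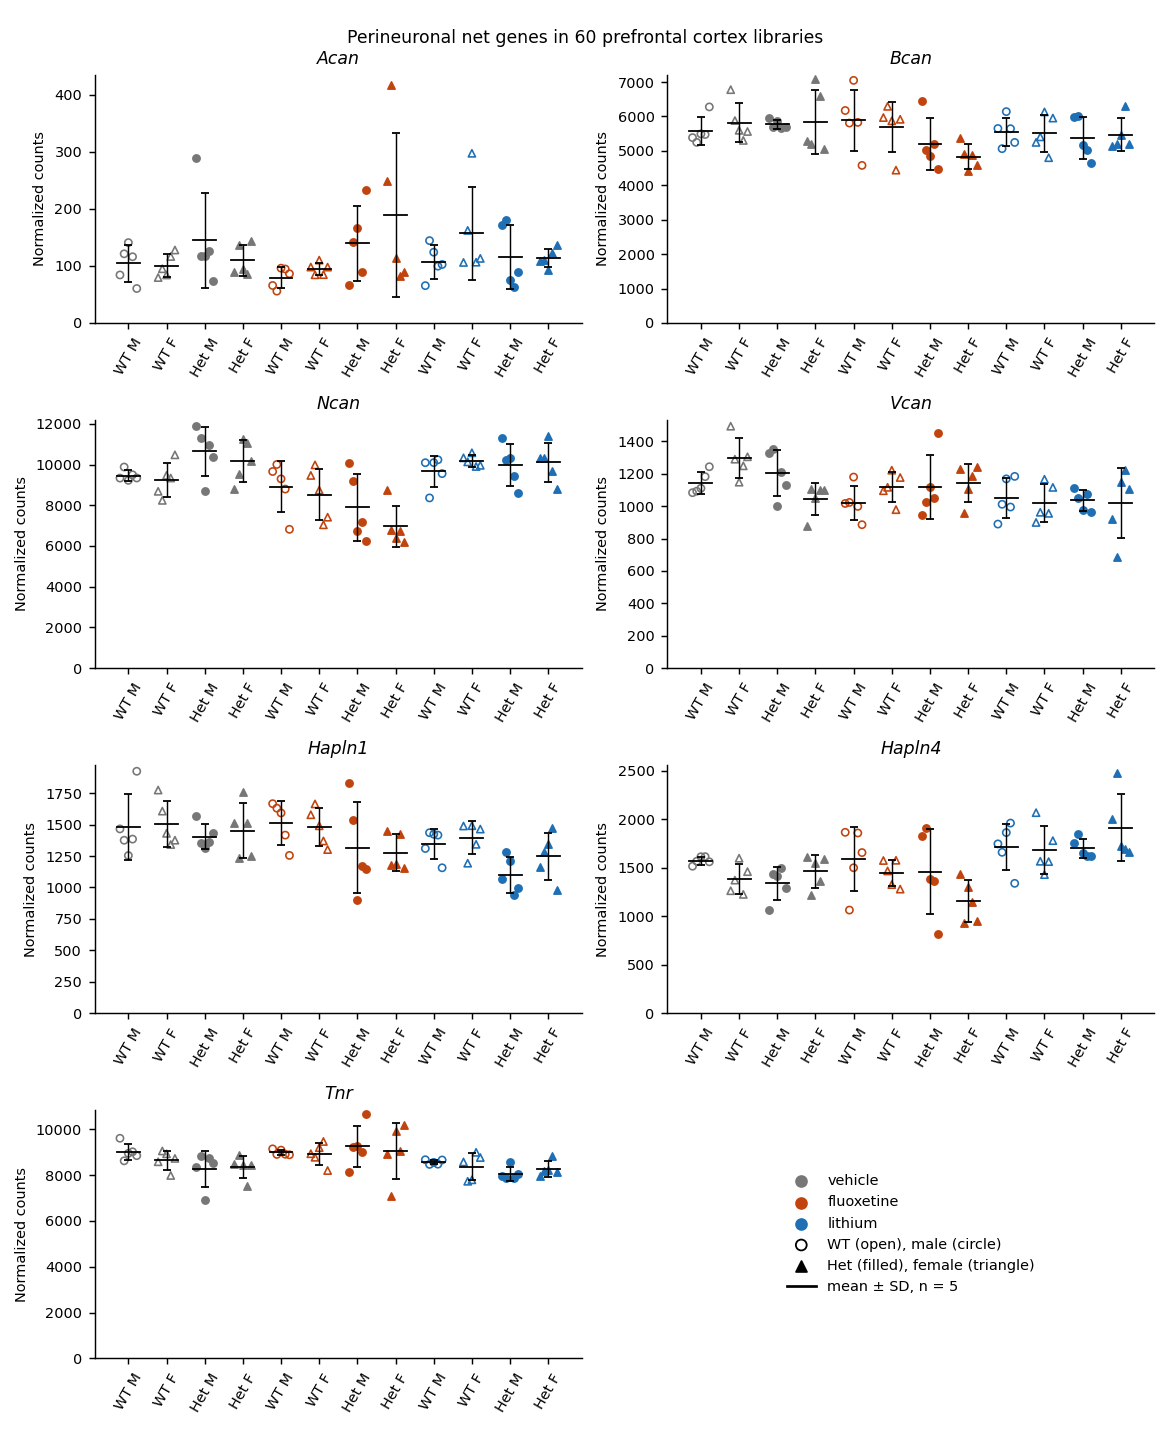
Normalized counts (y axis, from 0) of the 7 perineuronal net genes in each library, by group (x axis, M male, F female), with the mean and SD of each group of 5. Ncan is lowest in the Het fluoxetine groups, Hapln4 is highest in the Het lithium females, and Acan has single libraries of up to 417 far above the rest of their group.

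With the smallest step of a library's values taken as 1 read, libraries held 24.05 to 31.65 M reads over the tabulated genes (median 28.32 M). Chd8 ranged from 2951 to 3285 normalized counts in WT libraries and from 2421 to 3072 in Het libraries, and 1 Het library lay above the lowest WT value. The cortical excitatory neuron marker Slc17a7 (34169 to 54206 normalized counts) was present in every library. Markers of tissue beside the prefrontal cortex varied widely. The choroid plexus marker Ttr ranged from 0 to 14344. Among olfactory bulb markers Cdhr1, of its projection neurons, ranged from 65.2 to 9257 and Doc2g from 73.6 to 4095 (all 3 named after their values were seen). The 16 libraries with the highest olfactory bulb score (the mean centred log2 value of 14 marker genes) were 5 of the 10 Het fluoxetine, 5 Het vehicle, 1 Het lithium, 3 WT vehicle, 2 WT lithium and 0 WT fluoxetine libraries, and results that change without them are given as such.

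In Het mice Ncan, a lectican of the developing brain matrix, was lower with fluoxetine than with vehicle. In Het vehicle males Ncan stood at 11908, 11281, 8699.5, 10981 and 10349 normalized counts, and in Het fluoxetine males at 10054, 9205, 6758, 7198 and 6269. In Het vehicle females the values were 8785, 9535, 11266, 11049 and 10195, and in Het fluoxetine females 8730.3, 6807, 6411, 6719 and 6193.5. All 5 fluoxetine females lay below the lowest vehicle female, whereas 3 of the 5 fluoxetine males lay below the lowest vehicle male. The share of all genes whose groups separate fully was not counted. On the log2(value + 1) scale, averaged over both sexes, the difference was -0.50 (95% CI -0.65 to -0.35, adjusted p = 1.20e-06, limma over all tested genes, 10 libraries against 10), with -0.45 in males (adjusted p = 0.00183) and -0.55 in females (adjusted p = 0.000309). Ncan was the 1 member called in each sex, beside 22.7% of all tested genes in males and 15.1% in females.

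In WT mice Ncan ranged from 6818 to 10004 normalized counts with fluoxetine (median 9046) and from 8241 to 10477 with vehicle (median 9340). Both ranges overlapped widely, and 3 of the 10 fluoxetine libraries lay below the lowest vehicle library. The log2 difference was -0.11 (95% CI -0.26 to 0.04, adjusted p = 0.372, limma). The test of the difference between the genotypes, the genotype by fluoxetine interaction, gave -0.39 (adjusted p = 0.0406), and in that comparison 1.7% of all tested genes were called at an adjusted p under 0.05. Ncan was the 1 member called. The interaction was called in 6 of 9 alternative fits (limma). It was at adjusted p = 0.135 without the 16 libraries of high olfactory bulb score and at 0.0856 when only the groups compared were fitted. It was also not called with olfactory bulb, striatal and myelin scores as covariates. It kept its call in 18 of 40 fits that each left out 1 library (adjusted p from 0.0105 to 0.0794). The male difference was -0.27 (adjusted p = 0.308) without the 16 libraries and was also not called when only the groups compared were fitted. That of both sexes together stayed called in every fit tried.

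The 20 fluoxetine libraries fell on 2 sides of a gap in Ncan. 10 of them lay between 6193.5 and 7414 normalized counts, 7 Het and 3 WT, and the other 10 lay between 8730.3 and 10054, 3 Het and 7 WT. The lower 10 were replicates 2 to 5 of the Het females and 3 to 5 of the Het males. In WT mice they were replicates 4 and 5 of the females and 5 of the males. All are the highest-numbered libraries of their fluoxetine group. The labels do not say what the numbers stand for, and the part of library order in the Ncan differences was not tested. The score of 15 glucocorticoid-responsive genes, such as Fkbp5 and Sgk1, lay between 0.28 and 0.48 in the 10 lower libraries and between -0.17 and 0.06 in the 10 higher ones. Because the fluoxetine libraries form 2 clusters, no correlation over all libraries is given. Within the 20 vehicle libraries Ncan and this score had r = -0.58 (permutation p = 0.0215, adjusted p = 0.0649, Spearman rho = -0.58), and r = -0.44 without the 2 libraries farthest from the median score. Within the 20 lithium libraries r was -0.76 (permutation p = 0.00249, adjusted p = 0.0142, rho = -0.76), and -0.69 without the 2 farthest. For the other members r with this score, within vehicle and lithium and without a p, was 0.21 and -0.62 for Hapln1 and -0.18 and -0.50 for Hapln4. It was 0.06 and -0.29 for Bcan, 0.09 and -0.21 for Tnr, -0.12 and 0.24 for Vcan, and -0.19 and 0.09 for Acan. Within fluoxetine, where the score itself falls into the same 2 clusters, r was -0.83 for Hapln1, -0.58 for Bcan and -0.40 for Hapln4. There it was 0.14 for Tnr, 0.05 for Vcan and 0.07 for Acan. Lithium libraries reached scores of 0.36 with Ncan at 8362 or above. The part of these genes in the Ncan difference was not tested.

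Bcan, the most abundant lectican, was also lower with fluoxetine in Het mice, and Tnr, the cross-linker, was higher. Bcan ranged from 4410 to 6462 normalized counts with fluoxetine (median 4900) and from 5047 to 7086 with vehicle (median 5683), and 7 of 10 fluoxetine libraries lay below the lowest vehicle library. The log2 difference was -0.21 (95% CI -0.35 to -0.08, adjusted p = 0.0128, limma, 10 libraries against 10), and -0.24 (adjusted p = 0.0833) without the 16 libraries of high olfactory bulb score. Tnr ranged from 7100 to 10658 with fluoxetine (median 9135) and from 6928 to 8860 with vehicle (median 8479), with 8 of 10 fluoxetine libraries above the highest vehicle library. Its log2 difference was 0.13 (95% CI 0.04 to 0.22, adjusted p = 0.0177, limma), and the call was lost in 3 of 9 alternatives: after quantile normalization (0.07, adjusted p = 0.196), with the same total per library (0.10, 0.0864) and with only the groups compared (0.1335). The Tnr call was also lost without Het fluoxetine female 5 (adjusted p = 0.0533), Het fluoxetine male 5 (0.0548) or Het vehicle male 3 (0.0582). The first 2 of these had the highest striatal projection neuron scores of the Het fluoxetine libraries, 2.62 and 1.43, and Tnr was related to this score over the 60 libraries (r = 0.42, permutation, adjusted p = 0.0227, rho = 0.37, 0.38 without the 2 farthest libraries, and 0.21, 0.45 and 0.69 within vehicle, fluoxetine and lithium). Het vehicle male 3 had a striatal score of -0.12. With olfactory bulb, striatal and myelin scores as covariates the Tnr difference was 0.11 (adjusted p = 0.0394, limma). The part of striatal tissue in the Tnr difference was not tested.

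In that comparison 3 of the 7 members were called, 1 higher and 2 lower, beside 32.9% of all tested genes. The median log2 difference of the members was -0.14, and that of all genes was 0.01. Not called were Hapln1 (log2 difference -0.16, adjusted p = 0.166, limma), Hapln4 (-0.14, 0.296), Acan (0.24, 0.457) and Vcan (0.01, 0.961). In bulk tissue, fewer cells of a type and less RNA per cell cannot be told apart. Beside these differences, 6 of 10 endothelial and mural markers were lower and 0 higher, with summed levels of 8687 to 12778 against 10514 to 15275 in Het vehicle libraries. Of 10 microglial markers 5 were lower and 0 higher (sums of 7369 to 14203 against 10522 to 14474), and of 16 astrocyte markers 2 were lower and 1 higher (sums of 145440 to 196900 against 148130 to 217290). No marker of these lists was at 0 in every library, and their part in the results was not tested.

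In WT mice 0 of the 7 members were called with fluoxetine by limma, beside 8.2% of all genes, and 1 had an unadjusted p under 0.05. This was Vcan, the lectican of oligodendrocyte precursors and of migrating cells, with a log2 difference of -0.19 (adjusted p = 0.112), at 0.0234 when only the groups compared were fitted. Fluoxetine-treated Het and WT mice differed in Ncan by -0.24 (95% CI -0.39 to -0.09, adjusted p = 0.0385, limma), and 7.33% of all genes were called in that comparison. At an unadjusted p under 0.05 were 5 members, beside 4441 genes. Besides Ncan these were Bcan (-0.20, adjusted p = 0.0534), Acan (0.70, 0.0609), Hapln1 (-0.22, 0.09685) and Hapln4 (-0.25, 0.125). Ncan was the 1 member called, and the call was lost in 14 of 20 fits without 1 library (adjusted p from 0.0075 to 0.0994). It was kept only without Het fluoxetine female 1, Het fluoxetine male 1 or 2, WT fluoxetine female 4 or 5, or WT fluoxetine male 5. Without the 16 libraries its adjusted p was 0.0902, and fitting only the groups compared gave 0.185.

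**Figure D2:**
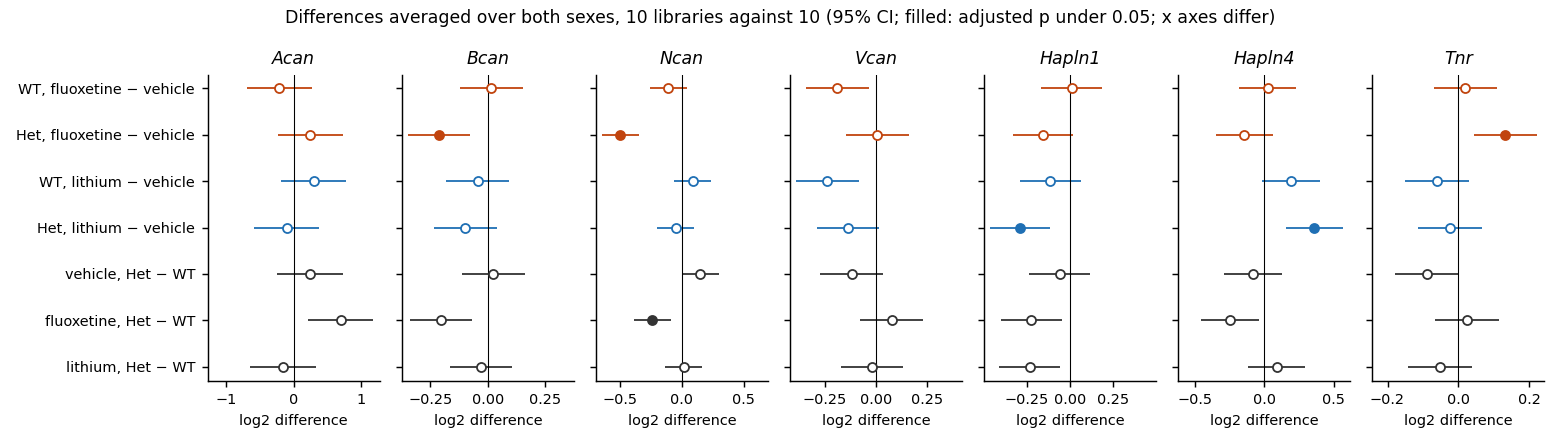
Log2 differences (x axis, log2(value + 1) scale) with 95% confidence intervals for the 7 genes, for each drug against vehicle within a genotype and for Het against WT within a treatment, 10 libraries against 10, with filled points for an adjusted p under 0.05 and an x axis of its own for each gene. The largest distance from 0 among called differences is that of Ncan with fluoxetine in Het mice, -0.50.

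With lithium the link proteins moved in opposite directions. Hapln4, the link protein that brings brevican to inhibitory synapses, ranged from 1617 to 2477 normalized counts in Het lithium libraries (median 1706) and from 1067 to 1605 in Het vehicle libraries (median 1423). All 10 lithium libraries lay above the highest vehicle library, and the share of all genes that separate as fully was not counted. The log2 difference was 0.36 (95% CI 0.15 to 0.57, adjusted p = 0.0204, limma), and the call was lost in 2 of 9 alternatives: 0.32 (adjusted p = 0.087) without the 16 libraries of high olfactory bulb score and 0.31 (0.0532) with tissue marker scores as covariates. In WT mice Hapln4 ranged from 1339 to 2067 with lithium and from 1225 to 1614 with vehicle, ranges that overlapped, and the difference was 0.19 (adjusted p = 0.323). The genotype by lithium interaction called 0 members and 0% of all genes by limma, with 0 members and 615 genes at an unadjusted p under 0.05.

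Hapln1, which anchors aggrecan to hyaluronan and is needed for complete nets, was lower with lithium in Het mice. In males its 5 lithium values were 1067, 1279, 1209.6, 943 and 996 normalized counts, and its 5 vehicle values 1567, 1349.8, 1311, 1359 and 1433, so the male groups did not overlap. How many of all genes do not overlap there was not counted. In that male comparison 0 members were called by limma, beside 2% of all genes, with 2, Hapln1 and Hapln4, at an unadjusted p under 0.05. In females, values of 977 to 1469 overlapped with 1234 to 1758. The log2 difference over both sexes was -0.29 (95% CI -0.47 to -0.11, adjusted p = 0.0278, limma), and -0.34 (adjusted p = 0.09) without the 16 libraries. In Het mice 2 of 7 members were thus called, beside 9.14% of all genes. The Hapln4 call was lost without Het lithium female 2 (adjusted p = 0.0508) or Het vehicle male 1 (0.0555). The Hapln1 call was lost without Het lithium female 1 (0.05004) or 5 (0.074), Het lithium male 4 (0.0621) or 5 (0.0524), Het vehicle female 3 (0.0744) or Het vehicle male 1 (0.0624).

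In WT mice lithium gave 0 called members by limma, beside 2.97% of all genes, and 1 member, Vcan, at an unadjusted p under 0.05. Vcan ranged from 890 to 1184 normalized counts with lithium (median 1003) and from 1084 to 1494 with vehicle (median 1213), and all 10 lithium libraries lay below the vehicle mean. Its log2 difference was -0.24 (adjusted p = 0.0722), and it passed when only the groups compared were fitted (0.0186). Over both genotypes, 3 of 7 members were called with lithium, beside 19.1% of all genes: Hapln4 was higher by 0.28 (adjusted p = 0.00516, limma, 20 libraries against 20), Hapln1 changed by -0.20 (0.0161) and Vcan by -0.19 (0.0103). The median of the members was -0.04 and that of all genes -0.00. Each of these 3 calls held in 40 of 40 fits without 1 library. Vcan was at adjusted p = 0.114 without the 16 libraries, and Acan, not called otherwise, was at 0.0311 with tissue marker scores as covariates.

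Genes of the parvalbumin interneurons that carry nets were measured beside the lithium results. Pvalb ranged from 468 to 959 normalized counts with lithium (median 696) and from 336 to 582 with vehicle (median 427), a log2 difference of 0.64 ± 0.09 (SE, adjusted p = 5.47e-07, limma). Of 16 genes in this list 7 were higher and 2 lower, beside 19.1% of all genes called. Kcns3, a potassium channel subunit of these cells, differed by -0.25 (adjusted p = 0.0474), and the list is thus not of 1 direction. Of 16 astrocyte markers 4 were lower and 0 higher, and of 10 microglial markers 1 was lower, beside the same 19.1%. The part of these cells in the Hapln4, Hapln1 and Vcan differences was not tested.

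Averaged over genotype and sex, fluoxetine against vehicle gave 1 called member, beside 33.6% of all genes: Ncan, at -0.30 (95% CI -0.41 to -0.20, adjusted p = 9.91e-06, limma). Tnr (0.08, adjusted p = 0.0547) and Bcan (-0.10, 0.107) were not called. Set directly against lithium, fluoxetine gave 3 called members, beside 28.9% of all genes. Ncan differed by -0.32 (adjusted p = 3.21e-06), Hapln4 by -0.34 (0.00032) and Tnr by 0.12 (0.00319), each in 40 of 40 fits without 1 library.

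Genotype called no member under vehicle, under lithium or over all treatments. Vehicle-treated Het and WT mice differed in 0 of 7 members by limma, beside 0.0562% of all genes, with 2 members at an unadjusted p under 0.05: Ncan (log2 difference 0.15, adjusted p = 0.637) and Tnr (-0.09, 0.641). In vehicle females Vcan ranged from 875 to 1108 in Het and from 1148 to 1494 in WT mice (-0.31, adjusted p = 0.602, limma). In vehicle males Hapln4 ranged from 1067 to 1492 in Het and from 1515 to 1614 in WT mice. Neither was called, though these groups did not overlap, and the share of all genes that separate as fully was not counted. Under lithium 0 members were called, beside 0.0393% of all genes, and 1, Hapln1, had an unadjusted p under 0.05 (-0.24, adjusted p = 0.712). Over all treatments 0 members were called, beside 1.54% of all genes, and Hapln1 was the 1 member at an unadjusted p under 0.05 (-0.17, adjusted p = 0.0634). Males and females differed in 0 members, beside 0.14% of all genes, with 0 members at an unadjusted p under 0.05. The interactions of sex with fluoxetine, lithium and genotype likewise called 0 members by limma, beside 0% of all genes in each, with 0 members at an unadjusted p under 0.05.

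Acan varied with the olfactory bulb markers. In the 16 libraries of highest score Acan ranged from 114 to 417 normalized counts (median 142), and in the other 44 from 55.8 to 180 (median 94.2). The 5 libraries highest in Acan, at 232 to 417, were all among the 6 highest in the score. Across the 60 libraries, with each value taken relative to its group mean, r was 0.78 (permutation p = 1e-05, the smallest 100000 permutations can give, adjusted p = 0.000122 over 147 relations) and rho was 0.77 (adjusted p = 0.000163). Without the 2 libraries farthest from the median score r was 0.75, and within vehicle, fluoxetine and lithium libraries it was 0.82, 0.77 and 0.83. The highest group mean of Acan, in Het fluoxetine females, includes values of 248 and 417, and 3 of those 5 libraries are among the 16. The part of olfactory tissue in the Acan levels was not tested.

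**Figure D3:**
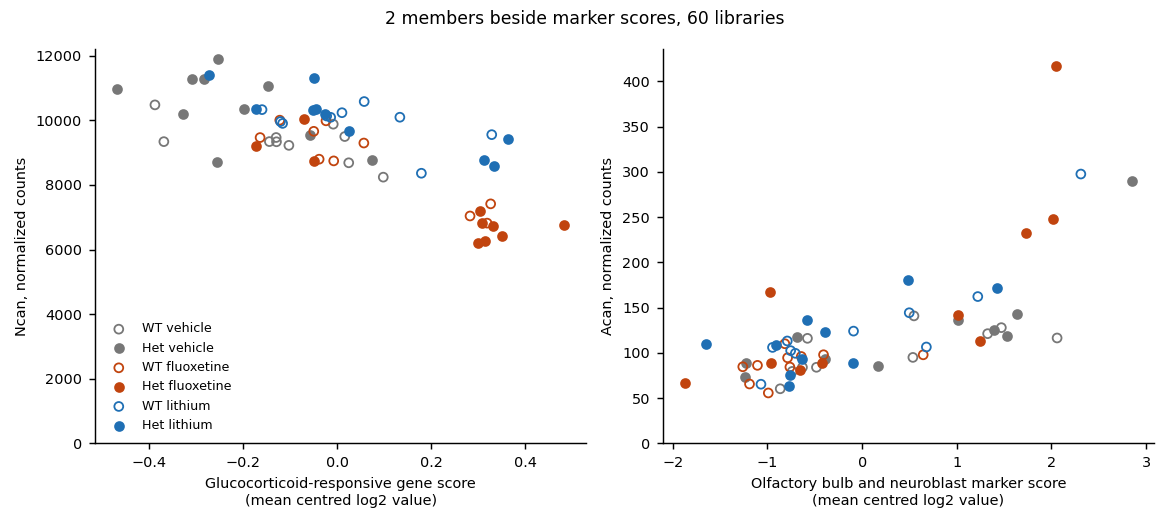
Levels of members (normalized counts) against marker scores (mean centred log2 value of the marker genes), 1 point per library, coloured by treatment. Acan rises with the olfactory bulb score, and the 10 fluoxetine libraries lowest in Ncan have glucocorticoid scores of 0.28 to 0.48.

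Among the 21 pairs of members, 4 were related within groups at an adjusted p under 0.05. Bcan and Hapln1 had r = 0.66 (permutation, adjusted p = 0.000122, rho = 0.66, 0.64 without the 2 farthest libraries), with 0.81, 0.64 and 0.53 in vehicle, fluoxetine and lithium libraries. Bcan and Ncan had r = 0.58 (adjusted p = 0.00049, rho = 0.51, 0.48 without the 2 farthest), but 0.19 within vehicle against 0.79 within fluoxetine. Ncan and Hapln1 had r = 0.56 (adjusted p = 0.000951, rho = 0.54, 0.48 without the 2 farthest), with 0.08 within vehicle and 0.85 within fluoxetine. This relation and that of Bcan and Ncan thus did not hold within vehicle libraries, and both include the 2 Ncan clusters of the fluoxetine libraries. Within lithium r was 0.39 for Ncan and Hapln1 and 0.51 for Bcan and Ncan. Vcan and Hapln4 were inversely related, with r = -0.52 (adjusted p = 0.00605, rho = -0.44, -0.47 without the 2 farthest) and -0.43, -0.51 and -0.67 by treatment.

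Bcan, Hapln1 and Ncan were also related to marker scores of glial and vascular cells. Ncan had r = 0.58 with the microglial score (permutation, adjusted p = 0.00154, rho = 0.53, 0.51 without the 2 farthest libraries). Within vehicle libraries that r was 0.04. Ncan had 0.55 with the endothelial and mural score (adjusted p = 0.000551, rho = 0.55) and 0.58 with the leptomeningeal score (adjusted p = 0.000122, rho = 0.60). Within vehicle, fluoxetine and lithium these were 0.42, 0.68 and 0.49 for the endothelial and mural score. For the leptomeningeal score they were 0.32, 0.75 and 0.50. All values of Ncan over the 60 libraries include the 2 Ncan clusters of the fluoxetine libraries. The highest r of Bcan was with the endothelial and mural score, 0.80 (permutation, adjusted p = 0.000122, rho = 0.76, 0.78 without the 2 farthest libraries), and Hapln1 had 0.61 with it (adjusted p = 0.00021, rho = 0.58, 0.58 without the 2 farthest). With the leptomeningeal score Bcan had 0.61 (rho = 0.59, 0.55 without the 2 farthest) and Hapln1 had 0.66 (rho = 0.64, 0.62 without the 2 farthest). With the score of mature oligodendrocytes and myelin r was -0.08 for Bcan (adjusted p = 0.751) and -0.18 for Hapln1 (0.43). With the excitatory cortical neuron score r was -0.65 for Bcan (permutation, adjusted p = 0.000122, rho = -0.63) and -0.40 for Hapln1 (0.023, rho = -0.36). Bcan had r = 0.73 with the astrocyte score (permutation, adjusted p = 0.000122, rho = 0.71, 0.71 without the 2 farthest libraries) and 0.77 with the microglial score (rho = 0.85, 0.83 without the 2 farthest). Hapln1 had r = 0.80 with the microglial score (rho = 0.75, 0.72 without the 2 farthest). Vcan had r = 0.63 with the score of oligodendrocyte precursors, cells that express it (rho = 0.54, 0.57 without the 2 farthest). Points in these relations share a library and its scaling, and the relations called here kept their sign within each treatment.

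**Figure D4:**
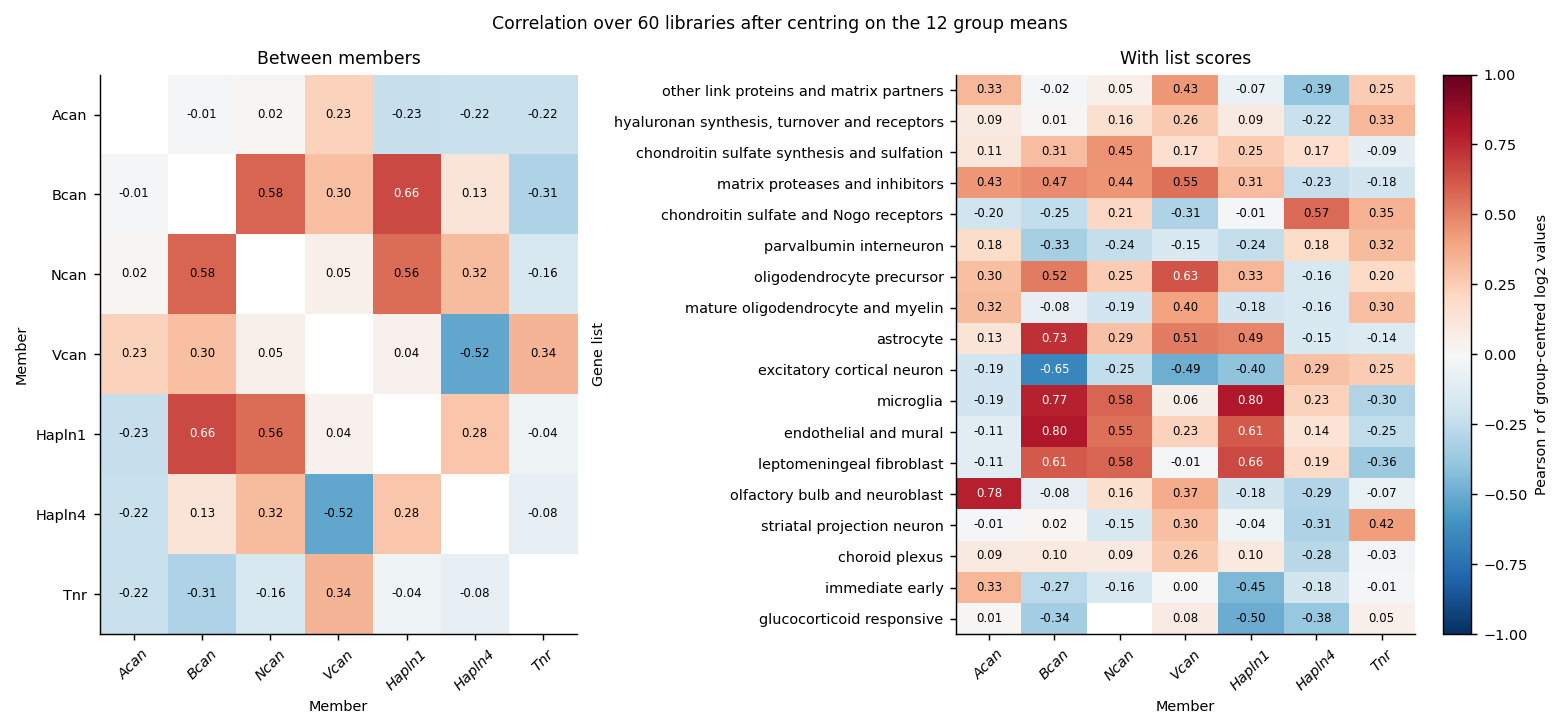
Pearson r over 60 libraries, after subtraction of group means, of each member with the other members and with the marker scores. Bcan, Hapln1 and Ncan share positive values with the astrocyte, microglial, endothelial and leptomeningeal scores, and Acan has its highest value, 0.78, with the olfactory bulb score.

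Over 12780 genes, those most like each member across the 60 libraries, again relative to group means, differed between members. Among those nearest to Bcan were Axl (r = 0.889), Mlc1 (0.882), Acsbg1 (0.866) and Fads1 (0.859), and nearest to Ncan were Slc29a4 (0.867), Fads2 (0.846), Sh3pxd2b (0.82), Aqp4 (0.808) and Rgs5 (0.808). Hapln1 was closest to Luzp2 (0.906), and next to P2ry12 (0.868), a microglial receptor. Hapln4 was closest to Kcng4 (0.78), Vcan to Dlg5 (0.778), Tnr to Spag9 (0.812) and Acan to Inpp5j (0.83), with Dlx1, an interneuron and olfactory bulb factor, also among the 5 genes nearest to Acan (0.79). These genes were picked for their r, which is therefore given without a p.

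The other matrix genes were described by lists, beside the 32.9% of all genes called with fluoxetine in Het mice. Of 12 link proteins and matrix partners 1 was higher and 3 lower, among them Tnc (tenascin-C, log2 difference -0.83 ± 0.18, SE, adjusted p = 0.000403, limma) and Ptprz1 (-0.22, 0.0076), a receptor phosphatase whose secreted form is the proteoglycan phosphacan. Of 12 hyaluronan genes 0 were higher and 2 lower: Hyal2, a hyaluronidase (-0.27, 4.03e-05), and Ugdh, which makes the sugar donor for hyaluronan and chondroitin (-0.23, 0.000302). Of 20 chondroitin sulfate genes 3 were higher and 3 lower, with the sulfotransferase Chst15 at 0.18 (0.000669) and the chondroitin synthase Chsy1 at -0.28 (0.00164). Of 19 proteases and inhibitors 3 were higher and 5 lower. Adamts1, a protease that cuts lecticans, differed by -0.69 ± 0.09 (adjusted p = 1.83e-07), and the inhibitors Timp4 and Timp2 by 0.48 (7.99e-05) and 0.23 (0.000391). Of 12 receptors for chondroitin sulfate and Nogo 3 were higher and 3 lower, with Ptprs, a chondroitin sulfate receptor, at -0.18 (0.000566).

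Adamts1 was lower with fluoxetine in WT mice too, by a log2 difference of -0.62 (adjusted p = 4.70e-06, limma), and Adamts4, another lectican-cutting protease, differed there by -0.78 (0.0225). Both are the 2 proteases called lower in WT mice, of 19 tested, with 0 higher, beside 8.2% of all genes called. Hapln2 and Hapln3, the link protein genes beside Bcan and Acan, were not called in Het mice with fluoxetine or over both genotypes with lithium (Hapln2 0.43, adjusted p = 0.227 with fluoxetine, and Hapln3 -0.32, 0.0884 with lithium). With lithium over both genotypes, Timp2 was higher by 0.21 (2.57e-05), the membrane protease Mmp16 differed by -0.24 (0.000357), Chsy3, a chondroitin synthase, by -0.27 (0.000564) and Ptprz1 by -0.16 (0.00876).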

How the data were processed

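RNA from 60 prefrontal cortex libraries was sequenced with a stranded mRNA kit, per the labels' protocols. Salmon 0.11.2, DESeq2 1.19.11, R 3.6.0 and build GRCm38 are named in the submitters' processing notes, which give no roles. The deposited table holds a signal per gene and library: a whole number divided by 1 factor per library (100% of values within a tolerance of 0.001). With the smallest step of a library taken as 1 read, totals were 24.05 to 31.65 M reads. Genes at 10 or more in at least 5 libraries were kept (17807), and log2(value + 1) was fitted with limma 3.58.1 (trend, 1 mean per group, 48 residual degrees of freedom), with Benjamini-Hochberg adjustment over all tested genes and calls under 0.05. Fold changes on this scale understate those of low genes. Scores are mean centred log2 values of marker lists. Correlations used 100000 permutations within groups. The fit was tested on simulated data. Members and lists were chosen with earlier results of these data known. Named genes are the members, Chd8, Pvalb, Kcns3, Hapln2, Hapln3, up to 4 genes of smallest p per matrix list and comparison, up to 4 markers per cell type list, and the 5 genes most like each member; not all of these are reported here. Replicate numbers in the labels were not taken as pairs.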

Additional observations from a re-analysis of the deposited data

Results flagged for a closer look

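In 8 of the 84 groups of 5 values (7 genes in 12 groups), 1 library stood apart from the other 4 by Dixon's ratio, where chance gives about 1 in 20. Acan was high in Het vehicle male 1, at 289.59 normalized counts against 73.3 to 125 in the others. Bcan was high in WT vehicle male 5 (6278.2 against 5247.5 to 5494) and in Het lithium female 4 (6310.3 against 5152 to 5475), and low in WT fluoxetine female 4 (4440.9 against 5874 to 6295). Ncan was high in Het fluoxetine female 1, at 8730.3 against 6193.5 to 6807. Vcan was low in Het vehicle female 1, at 875.33 against 1051 to 1108. Tnr was low in Het vehicle male 3 (6927.5 against 8362 to 8847) and high in Het lithium male 3 (8594.5 against 7859 to 8066). The fluoxetine difference of Ncan differed between the genotypes by the interaction test, at -0.39 on the log2 scale (adjusted p = 0.0406, limma). That call was kept in 6 of 9 alternative fits and lost in 22 of 40 fits without 1 library.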

How the results depend on the processing

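The planned edgeR and DESeq2 alternatives were not run, since the values of 9 libraries step by about 1, where the recovery of whole reads could not be checked. No called difference changed direction. Of those not called, Acan in Het against WT females with fluoxetine was 0.70 on the log2 scale with all libraries and -0.15 without the 16 libraries of high olfactory bulb score. Counts of called members are given here without the share of all genes called in the same fit. They do not tell a change of the members from one of all genes. The number of called members changed in these comparisons. Without the 16 libraries of high olfactory bulb score, an alternative chosen after seeing the data, it was 2 for fluoxetine over both genotypes (1 with all libraries), 3 for fluoxetine in Het females (1), 0 for fluoxetine in Het males (1), 0 for the genotype by fluoxetine interaction (1), 0 for Het against WT with fluoxetine (1) and 0 for lithium in Het mice (2). With a filter at 50 it was 2 for fluoxetine over both genotypes, for Het females and for Het against WT with fluoxetine. With only the groups compared it was 0 for fluoxetine in Het males, the interaction and Het against WT with fluoxetine, and 1 for fluoxetine and for lithium in WT mice (0). Quantile normalization gave 2 for Het against WT with fluoxetine, and the same total per library gave 2 for fluoxetine over both genotypes and in Het females. Tissue scores as covariates gave 0 for the interaction, 1 for lithium in Het mice and 1 for lithium in WT mice. For fluoxetine in Het mice of both sexes (3), the number was 2 without the 16 libraries, after quantile normalization, with the same total per library and with only the groups compared. For lithium over both genotypes (3), it was 2 without the 16 libraries and 4 with tissue scores as covariates. The replicate block gave 2 for fluoxetine in Het females, 2 for Het against WT with fluoxetine and 1 for Het against WT over all treatments (0). Taken over all tested genes, same-numbered libraries did not deviate together. Over 330 pairs the correlation ran from -0.276 to 0.295 (median 0.001), with 59 over 0.1, so the numbers were not taken as pairs. Single genes can still follow the numbers. In Het females, Het males, WT females and WT males with fluoxetine, the glucocorticoid score was 0.299, 0.314, 0.327 and 0.319 in replicate 5. It was -0.049, -0.072, -0.164 and -0.050 in replicate 1. With vehicle, replicate 5 scores ran from -0.388 to -0.145.

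Leaving out 1 library at a time gave 0 to 5 called members for Het against WT with fluoxetine, 2 to 4 for fluoxetine in Het mice of both sexes, 3 to 4 for fluoxetine against lithium, 1 to 3 for fluoxetine in Het females, 1 to 2 in Het males, 1 to 3 over both genotypes, 0 to 1 for the interaction, 0 to 2 for lithium in Het mice, 0 to 1 for lithium in WT mice and 0 to 1 for Het against WT over all treatments. The share of all genes called in each of these fits is not given. The counts do not tell a change of the members from one of all genes, and the cause of these changes was not tested. The 5 libraries per group limit the precision, and Acan, the lowest member, is the least precise.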
